A study of Mus musculus with 32 samples.

Results

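The 6 genes described here, Sost, Dkk1, Dkk3, Wif1, Sfrp4 and Sfrp5, encode secreted antagonists of Wnt signalling and were taken by symbol from whichever of 2 expression tables held them. They are 6 of the 2544 genes that the 2 tables list between them. The cartilage table held 4 of them among its 1606 genes (Sost, Dkk1, Wif1 and Sfrp5), the synovium table held 3 among its 1178 genes (Dkk3, Sfrp4 and Sfrp5), and Sfrp5 was in both. Bulk RNA sequencing had been done on tissue of C57BL/6 mice. The groups were MMS D3, MMS D7 and MMS D14, then R1 and R2, and a comparison group named Control, with MMS D28 in cartilage only. MMS is named in the series as a mouse model; no label explains the abbreviations MMS, R1 and R2 or says which unit D counts, and none gives an age, an allele or an agent. Synovium, the soft tissue lining the joint, had 18 samples in 6 groups of 3, and cartilage had 14 samples in 7 groups of 2.

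Wnt proteins are secreted ligands that act through Frizzled receptors with the co-receptors LRP5 and LRP6 and stabilise beta-catenin in the receiving cell. Secreted antagonists act outside the cell in either of a pair of ways. Sclerostin, the product of Sost, and Dkk1 bind the LRP5 and LRP6 co-receptors, whereas Wif1 and the secreted Frizzled-related proteins Sfrp4 and Sfrp5 bind the Wnt ligands themselves. Dkk3 is a divergent dickkopf protein whose action on LRP co-receptors is not settled. In the skeleton Sost is known as an osteocyte gene that restrains bone formation, and Wif1 and several Frizzled-related proteins are known from cartilage and joint tissues.

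In the mouse assembly GRCm38 with GENCODE vM21 annotation, Sost lies at chr11:101962458-101967015 on the minus strand, Dkk1 at chr19:30545863-30549665 on the minus strand and Wif1 at chr10:121033960-121100650 on the plus strand. Sfrp5 lies at chr19:42197971-42202252 on the minus strand, Sfrp4 at chr13:19623104-19632994 on the plus strand and Dkk3 at chr7:112116017-112159057 on the minus strand. The values are gene-level and cover no single exon or UTR. The promoters of the 4 genes measured in cartilage are shown because their levels moved in the same tissue over the same groups; the RefSeq promoter table of GRCm38.p6 matched 4 of the 6 genes. The windows are the 250 bases before the RefSeq start, at chr11:101967016-101967265 (Sost, minus strand), chr19:30549497-30549746 (Dkk1, minus strand), chr10:121033754-121034003 (Wif1, plus strand) and chr19:42202253-42202502 (Sfrp5, minus strand). GENCODE places the start of Dkk1 and of Wif1 further upstream, inside these windows. Each sequence is written 5′ to 3′ on the gene's own strand, and capitals mark every match to the motifs named after them.
Sost: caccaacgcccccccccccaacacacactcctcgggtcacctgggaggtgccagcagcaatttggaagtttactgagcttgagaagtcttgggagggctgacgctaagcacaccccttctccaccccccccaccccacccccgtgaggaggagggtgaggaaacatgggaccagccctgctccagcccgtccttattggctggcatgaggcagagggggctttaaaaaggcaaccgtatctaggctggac
Dkk1: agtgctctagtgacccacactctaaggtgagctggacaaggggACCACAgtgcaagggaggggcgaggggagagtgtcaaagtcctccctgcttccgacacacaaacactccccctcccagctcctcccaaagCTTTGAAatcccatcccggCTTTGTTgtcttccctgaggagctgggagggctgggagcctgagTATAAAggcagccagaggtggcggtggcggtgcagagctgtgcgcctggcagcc
Wif1: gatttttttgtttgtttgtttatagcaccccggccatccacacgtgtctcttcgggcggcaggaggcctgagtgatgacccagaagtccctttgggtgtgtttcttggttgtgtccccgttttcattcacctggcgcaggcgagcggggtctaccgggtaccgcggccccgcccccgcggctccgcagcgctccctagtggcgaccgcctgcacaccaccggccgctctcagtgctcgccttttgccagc
Sfrp5: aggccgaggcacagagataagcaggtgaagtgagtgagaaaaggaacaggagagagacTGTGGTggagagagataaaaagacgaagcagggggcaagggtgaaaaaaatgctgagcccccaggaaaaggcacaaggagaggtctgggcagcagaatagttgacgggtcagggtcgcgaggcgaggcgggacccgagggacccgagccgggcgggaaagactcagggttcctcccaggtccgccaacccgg
The letters searched were CTTTG followed by AA, AT, TA or TT for TCF/LEF factors and TGTGGT for RUNX factors, both on either strand, and TATAAA on the gene's strand. Dkk1 held CTTTGAA at 117 to 111 bases and CTTTGTT at 98 to 92 bases before its start, a RUNX match on the other strand (ACCACA) at 207 to 202 bases, and TATAAA at 54 to 49 bases. Sfrp5 held TGTGGT at 192 to 187 bases, and the Sost and Wif1 windows held none of these letters. No match overlapped another. Among 32851 promoter windows of the same length, 14.8% held a TCF/LEF match, 14% a RUNX match and 7.59% TATAAA.

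The synovium values are FPKM (fragment abundance scaled by transcript length and by sequencing depth), and the cartilage values are a normalised signal whose unit is not given in the sources used here. Both tables hold genes that mostly differ from Control in 1 late group: 98.0% of the synovium genes had an MMS D14 mean, and 99.0% of the cartilage genes an MMS D28 mean, at least 1.5-fold away from Control. The tables were normalised separately, so no level was compared between tissues. Differences were tested with limma on log2(value + 1), with p-values adjusted over all genes of a table by the Benjamini-Hochberg method and called at an adjusted p under 0.05. All comparisons against Control share the same Control samples. The labels do not say that samples of a group came from separate animals, so p-values measure the spread between these samples only. For synovium, 13 of 13 adipocyte markers and 4 of 6 lining fibroblast markers were listed. For cartilage, 14 of 17 chondrocyte markers were listed, together with 10 of 10 neutrophil and 8 of 8 B cell markers, which are not chondrocyte genes. In bulk tissue, fewer cells of a type and less RNA per cell cannot be told apart. In synovium 5 libraries lay on 1 side of the leading component of the within-group residuals (36.6% of the residual variance). They were replicate 3 of Control, MMS D3, MMS D14, R1 and R2. Without them 19 synovial calls of the antagonists stayed and 1 was lost, that of Sfrp4 in MMS D7 against MMS D3.

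In cartilage all 4 antagonists were lower in MMS D14 and in MMS D28 than in Control. Dkk1 was the only one of the 4 to pass the test in MMS D3, Sost, Dkk1 and Sfrp5 passed in MMS D7, and Sfrp5 had the largest fitted fall, in MMS D14. The calls, all lower, numbered 1 of 4 in MMS D3 (23.8% of all cartilage genes were called there in either direction), 3 of 4 in MMS D7 (22.4%), 4 of 4 in MMS D14 (53.5%) and 4 of 4 in MMS D28 (97.3%). None of the 4 was called higher than Control in any group. The MMS D28 count follows the choice of genes in that table and is given as a description.

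Sost signal was 94.18 and 96.62 in Control cartilage, 81.14 and 69.49 in MMS D3, 44.95 and 65.08 in MMS D7, 35.61 and 34.67 in MMS D14, and 26.37 and 35.43 in MMS D28. Each MMS sample lay below both Control samples, and the MMS D14 and MMS D28 samples overlapped. The MMS D14 mean of 35.1 ± 0.665 was 0.368 times the Control mean of 95.4 ± 1.73 (SD, n = 2 each). On the log2 scale Sost fell by 0.81 ± 0.18 (SE) in MMS D7 (adjusted p = 0.00755), by 1.42 in MMS D14 (8.37e-05) and by 1.61 in MMS D28 (3.71e-05). Its MMS D3 difference of -0.34 did not pass (adjusted p = 0.192, 95% interval -0.74 to 0.05). Over the alternatives the MMS D7 adjusted p ran between 0.00293 and 0.0718, the highest without MMS D7 replicate 1.

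Dkk1, whose protein blocks LRP5 and LRP6, stood at 13.71 and 12.49 in Control, 7.89 and 7.52 in MMS D3, 8.42 and 7.43 in MMS D7, 6.22 and 7.21 in MMS D14, and 2.7 and 3.69 in MMS D28. No other sample reached the lower Control value, and both MMS D28 samples lay below every other sample. The first drop was present in MMS D3, at -0.69 ± 0.16 on the log2 scale (adjusted p = 0.00918), and the MMS D7 value was close to it (-0.66, 0.00987). Dkk1 fell by 0.87 in MMS D14 (0.000862) and by 1.76 in MMS D28 (8.23e-06), where its mean of 3.20 ± 0.700 was 0.244 times the Control mean of 13.1 ± 0.863. The MMS D3 call was lost without Control replicate 1 (adjusted p = 0.0624) or MMS D3 replicate 2 (0.0667), and the MMS D7 call without Control replicate 1 (0.0769) or MMS D7 replicate 2 (0.0527); over the alternatives p ran between 0.00213 and 0.0667 in MMS D3, and between 0.00978 and 0.0769 in MMS D7.

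Wif1, a Wnt-binding protein of mesenchymal tissues, was at 415.63 and 371.56 in Control, 331.72 and 307.54 in MMS D3, 246.24 and 361.89 in MMS D7, 169.94 and 147.1 in MMS D14, and 116.7 and 148.02 in MMS D28. The 4 samples of MMS D14 and MMS D28 formed the low end with no overlap with earlier groups, and the MMS D7 pair was spread the widest. Wif1 fell by 1.31 ± 0.19 in MMS D14 (adjusted p = 0.00019) and by 1.57 in MMS D28 (4.92e-05) on the log2 scale. The differences in MMS D3 (-0.30, adjusted p = 0.27, 95% interval -0.70 to 0.11) and MMS D7 (-0.40, 0.153, interval -0.80 to 0.01) did not pass. Without MMS D7 replicate 2 the MMS D7 difference was called (adjusted p = 0.0253, range over the alternatives 0.0253 to 0.735).

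Sfrp5, a Frizzled-related protein that binds Wnt ligands, had signals of 41.26 and 30.9 in Control, 28.86 and 36.32 in MMS D3, 10.49 and 20.24 in MMS D7, 3.93 and 4.45 in MMS D14, and 10.76 and 11.88 in MMS D28. The MMS D3 samples overlapped Control, and the MMS D14 samples lay below all others. Sfrp5 fell by 1.23 ± 0.25 in MMS D7 (adjusted p = 0.00425), by 2.82 in MMS D14 (7.96e-06) and by 1.58 in MMS D28 (0.000294), and its MMS D3 difference was -0.14 (0.743, 95% interval -0.69 to 0.41). The MMS D14 mean of 4.19 ± 0.368 was 0.116 times the Control mean of 36.1 ± 7.33 (SD, n = 2 each).

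**Figure D1:**
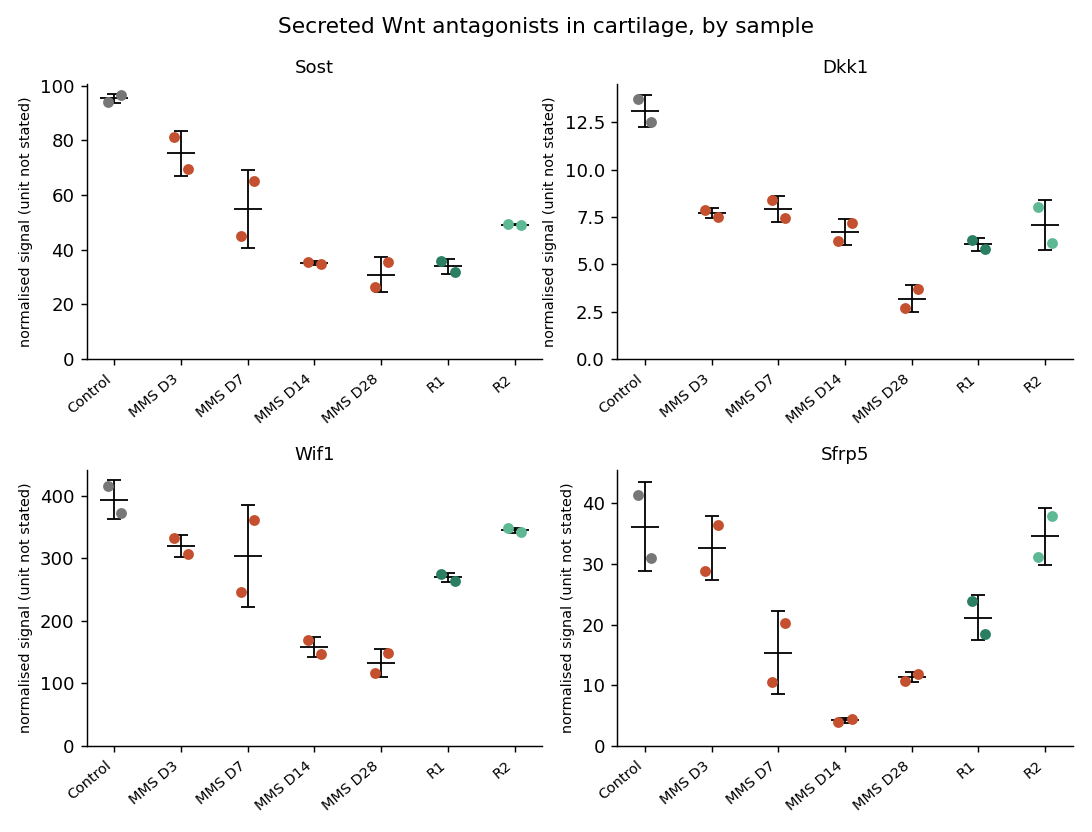
Normalised signal (vertical axis, unit not stated, starting at 0) of Sost, Dkk1, Wif1 and Sfrp5 in each cartilage sample by group; points are samples (grey Control, red MMS, green R1 and R2), horizontal bars the mean of 2 and whiskers 1 SD. Dkk1 in MMS D3 to MMS D28 lies below both Control points, and Sfrp5 is lowest at 3.93 and 4.45 in MMS D14.

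Steps between successive MMS groups differed by gene. In MMS D7 against MMS D3, 1 of 4 was called lower, against 14.1% of all genes: Sfrp5 fell by 1.10 (adjusted p = 0.012). In MMS D14 against MMS D7, 3 of 4 were called lower, against 7.66% of all genes: Sfrp5 fell by 1.59 (0.00517), Wif1 by 0.91 (0.012) and Sost by 0.61 (0.0415). In MMS D28 against MMS D14 the antagonists moved both ways, with 2 of 4 called against 21.9% of all genes. Dkk1 fell by a further 0.89 (adjusted p = 0.00747), whereas Sfrp5 rose by 1.25 (0.00976). Sost (-0.19, 0.408) and Wif1 (-0.26, 0.278) did not pass in that step. These step calls rest on few libraries. The falls in MMS D14 against MMS D7 were lost without MMS D7 replicate 2 (adjusted p = 0.349 for Sost, 0.123 for Wif1 and 0.0587 for Sfrp5), without MMS D14 replicate 2 (0.2 for Sost, 0.11 for Wif1), and for Sost without MMS D14 replicate 1 (0.104) or with only the 2 groups in the fit (0.0764). The Sfrp5 fall in MMS D7 against MMS D3 was lost without MMS D3 replicate 2 (0.121) or MMS D7 replicate 1 (0.099). In MMS D28 against MMS D14 the Dkk1 and Sfrp5 calls were lost without MMS D14 replicate 1 (0.0526 and 0.09) or MMS D28 replicate 1 (0.0753 for each).

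Cell type markers moved with these genes, and their part in the falls was not tested. For Sost, 4 of 9 osteocyte markers were listed (Dmp1, Mepe, Phex and Irx5), and none of the 4 was at 0. Their summed signal was 174 to 193 in Control, 113 to 146 in MMS D3, 178 to 179 in MMS D7, 133 to 158 in MMS D14 and 67.4 to 88.0 in MMS D28. In MMS D14, where Sost fell, none of the 4 was called (Mepe -0.44, adjusted p = 0.0759; Dmp1 -0.21, 0.394). In MMS D28 all 4 were called lower, beside 54.6% of all genes called lower and 97.3% called in either direction. Sost as a percentage of that sum was 50.0 to 54.1 in Control, 55.6 to 61.5 in MMS D3, 25.2 to 36.4 in MMS D7, 21.9 to 26.7 in MMS D14 and 39.1 to 40.3 in MMS D28. Sost was therefore low relative to the osteocyte sum in MMS D7 and MMS D14, and nearer to Control in MMS D28. Dkk1 as a percentage of the same sum was 6.46 to 7.88 in Control, 5.40 to 6.65 in MMS D3, 4.16 to 4.72 in MMS D7, 4.55 to 4.66 in MMS D14 and 4.0 to 4.19 in MMS D28. Of 12 osteoblast markers 6 were listed, none at 0, and their sum was 5433 to 5711 in Control, 2199 to 2727 in MMS D3, 3476 to 3654 in MMS D7, 3908 to 4555 in MMS D14 and 1976 to 3323 in MMS D28. Of these 6 markers, 4 were called lower in MMS D3, where Dkk1 was first called, 2 in MMS D7, 0 in MMS D14 and 6 in MMS D28.

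The chondrocyte sum over 14 of 17 markers, none at 0, was 19634 to 25834 in Control, 30454 to 31085 in MMS D3, 12849 to 19268 in MMS D7, 5786 to 7032 in MMS D14 and 8379 to 9467 in MMS D28. It was lowest in the group in which Sfrp5 was lowest, and 10 of the 14 markers were called lower there, in a comparison where 53.5% of all genes were called. Sfrp5 as a percentage of that sum was 0.157 to 0.160 in Control, 0.0948 to 0.117 in MMS D3, 0.0816 to 0.105 in MMS D7, 0.0559 to 0.0769 in MMS D14 and 0.125 to 0.128 in MMS D28. Wif1 as a percentage of it was 1.61 to 1.89 in Control, 0.989 to 1.09 in MMS D3, 1.88 to 1.92 in MMS D7, 2.42 to 2.54 in MMS D14 and 1.39 to 1.56 in MMS D28, so in MMS D14 Wif1 was high relative to the chondrocyte sum while Sfrp5 was low. The most abundant markers weigh most in that sum. By log2 change in MMS D14, the median of the 14 markers was -1.09, beside -1.31 for Wif1 and -2.82 for Sfrp5, so Wif1 fell no less than the median marker. Neutrophil markers summed to 32600 to 33117 in Control, 28418 to 31772 in MMS D3 and 24127 to 32338 in MMS D7, with 0 of 10 called in both MMS groups. Their sum was 38871 to 48400 in MMS D14 (1 of 10 called higher) and 51542 to 67655 in MMS D28 (10 of 10). B cell markers summed to 659 to 702 in Control, 369 to 414 in MMS D3 (6 of 8 called lower), 244 to 255 in MMS D7 (7 of 8), 215 to 232 in MMS D14 (7 of 8) and 136 to 235 in MMS D28 (8 of 8). These sums and percentages were formed after the values were seen and have no test.

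**Figure D2:**
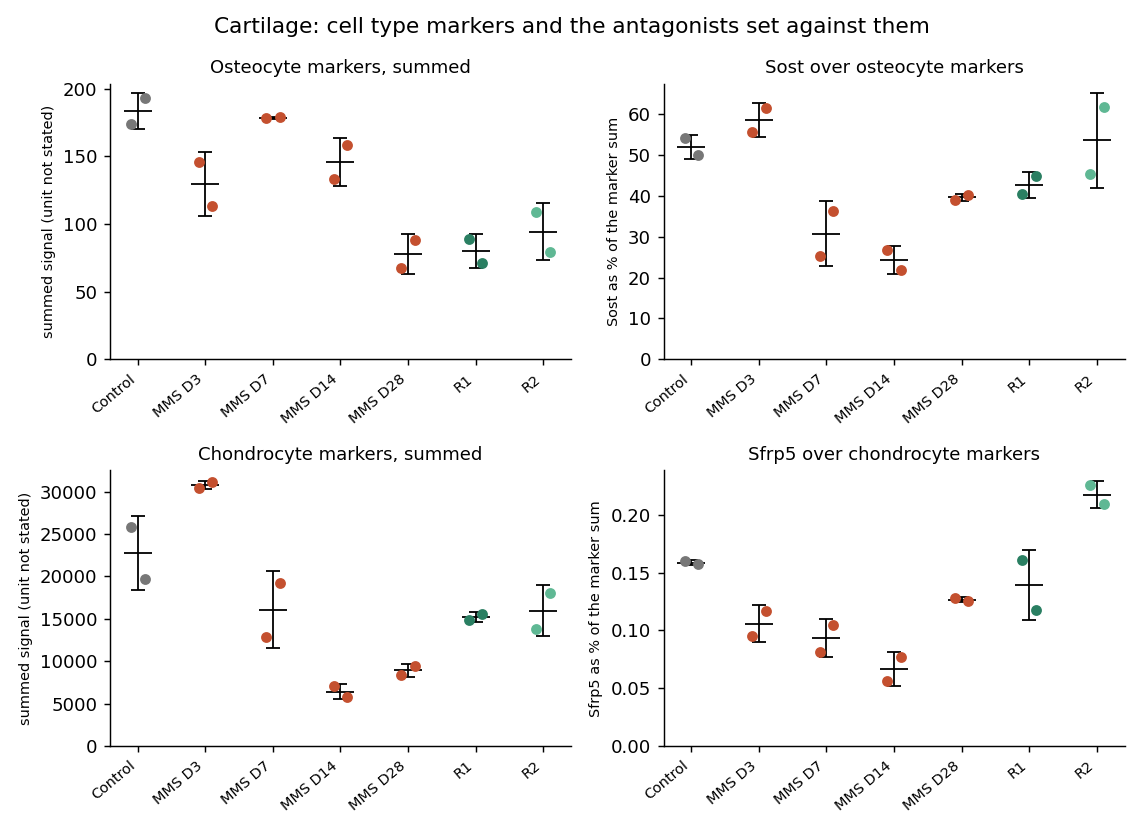
Left panels: summed signal (unit not stated) of 4 osteocyte markers and of 14 chondrocyte markers in each cartilage sample by group. Right panels: Sost as a percentage of the osteocyte sum and Sfrp5 as a percentage of the chondrocyte sum; points are samples, horizontal bars means and whiskers 1 SD. Sost relative to the osteocyte sum is lowest in MMS D14, at 21.9 to 26.7%, against 50.0 to 54.1% in Control.

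In R1 cartilage 4 of 4 antagonists were called lower than Control, where 69.2% of all genes were called and 33.3% were called lower. In R2 cartilage 2 of 4 were called lower, Sost and Dkk1, where 0.747% of all genes were called and 0.685% were called lower, and these are 2 of the 12 genes of 1606 called in R2 in either direction. Sost stood at 35.98 and 31.99 in R1 and at 49.34 and 49.03 in R2, so that all 4 samples lay below both Control samples and the R2 pair lay above the R1 pair. On the log2 scale Sost was -1.46 in R1 (adjusted p = 0.00037) and -0.94 in R2 (0.0342) against Control. Dkk1 stood at 6.31 and 5.81 in R1 and at 8.01 and 6.13 in R2, all below both Control samples. Its differences from Control were -1.0 in R1 (adjusted p = 0.00119) and -0.81 in R2 (0.0342). The R2 calls are near the threshold. The Sost call was lost without any 1 of the 4 libraries compared: 0.103 without Control replicate 1, 0.167 without Control replicate 2, 0.111 without R2 replicate 1 and 0.131 without R2 replicate 2. The Dkk1 call was lost without Control replicate 1 (0.151), Control replicate 2 (0.152) or R2 replicate 2 (0.21). Both calls were also lost with only the 2 groups in the fit (0.0979 for Sost and 0.108 for Dkk1), and the Dkk1 call with a pseudocount of 0.1 (0.0509); over the alternatives p ran between 0.0327 and 0.167 for Sost, and between 0.0327 and 0.21 for Dkk1. Osteocyte markers summed to 71.0 to 89.0 in R1 (4 of 4 called lower) and 79.2 to 109 in R2 (1 of 4 called lower), against 174 to 193 in Control. Sost was 40.4 to 45.0% of that sum in R1 and 45.4 to 61.9% in R2, a range that spans the Control values, and Dkk1 was 7.09 to 8.18% in R1 and 7.37 to 7.74% in R2, against 6.46 to 7.88% in Control. Osteoblast markers summed to 2898 to 4541 in R1 (3 of 6 called lower) and 5557 to 8400 in R2 (0 of 6 called), against 5433 to 5711 in Control. Neutrophil markers summed to 59126 to 60989 in R1 (10 of 10 called higher) and 33600 to 42563 in R2 (0 of 10 called), and B cell markers to 324 to 353 in R1 (7 of 8 called lower) and 853 to 868 in R2 (0 of 8 called); the part of these markers in the result was not tested.

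Wif1 and Sfrp5 had smaller fitted differences from Control than Sost and Dkk1 in both groups, and the difference between genes was not tested. Wif1 was at 274.58 and 264.21 in R1 and at 347.91 and 342 in R2. Both pairs lay below Control without overlap, and the log2 difference was -0.54 in R1 (adjusted p = 0.0231) and -0.19 in R2 (0.603, 95% interval -0.59 to 0.22). Sfrp5 was at 23.8 and 18.49 in R1 and at 31.2 and 37.81 in R2, where it overlapped Control. It differed from Control by -0.74 in R1 (0.0228) and by -0.05 in R2 (0.925, interval -0.60 to 0.49). The R1 calls were lost without Control replicate 1 (0.125 for Wif1 and 0.154 for Sfrp5) or R1 replicate 2 (0.0972 and 0.139), and the Wif1 call also without R1 replicate 1 (0.0734) or with samples centred on their medians (0.0655). The chondrocyte sum was 14823 to 15615 in R1 and 13807 to 18055 in R2, against 19634 to 25834 in Control. Sfrp5 was 0.118 to 0.161% of it in R1 and 0.209 to 0.226% in R2, against 0.157 to 0.160% in Control, and Wif1 was 1.69 to 1.85% in R1 and 1.89 to 2.52% in R2, against 1.61 to 1.89%.

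Set against MMS D14, 2 of 4 were called higher in R1 (8.28% of all genes) and 2 of 4 in R2 (19.8%), and both times they were Wif1 and Sfrp5. Sfrp5 rose by 2.08 ± 0.25 in R1 (adjusted p = 0.000602) and by 2.77 in R2 (6.69e-06). Wif1 rose by 0.76 in R1 (0.0142) and by 1.12 in R2 (0.000615). Sost and Dkk1 did not pass in either group, although Sost in R2 was called with only the 2 groups in the fit (adjusted p = 0.0339, range over the alternatives 0.0339 to 0.197). Sost differed from MMS D14 by -0.05 in R1 (0.865, 95% interval -0.44 to 0.35) and by 0.47 in R2 (0.059, interval 0.08 to 0.87). Dkk1 differed by -0.13 in R1 (0.595, interval -0.47 to 0.22) and by 0.06 in R2 (0.793, interval -0.28 to 0.40). Of the chondrocyte markers, 5 of 14 were called higher in R1 and 7 of 14 in R2 against MMS D14, and 0 lower. Of the osteocyte markers, 4 of 4 were called lower in R1 (9.78% of all genes) and 1 of 4 in R2 (15.9%). The part of these markers was not tested. The Wif1 call in R1 was lost without MMS D14 replicate 2 (0.0932), R1 replicate 1 (0.0855) or R1 replicate 2 (0.074). Between R2 and R1, Sost was called higher in R2 by 0.52 (adjusted p = 0.0425), 1 of 4 against 13.2% of all genes; this was lost without any 1 of the 4 libraries (0.101 and 0.2 without R1 replicates 1 and 2, 0.169 and 0.0956 without R2 replicates 1 and 2) and with centred samples (0.0649). Sfrp5 (0.69, 0.0514), Wif1 (0.36, 0.141) and Dkk1 (0.18, 0.354) did not pass.

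In synovium the 3 antagonists each followed a different course. Dkk3 rose in every MMS group and in R1 and R2, Sfrp4 fell in MMS D3 and rose in R1 and R2, and Sfrp5 fell in MMS D7, MMS D14 and R2. The calls against Control numbered 2 of 3 in MMS D3 (55.9% of all synovium genes), 2 of 3 in MMS D7 (85.7%), 2 of 3 in MMS D14 (96.9%), 2 of 3 in R1 (61.1%) and 3 of 3 in R2 (60.8%). Counts this close to the background say nothing particular about the 3 genes, and the MMS D14 contrast is the one in which nearly all genes of the table differ from Control. The table as a whole was shifted down: the median of its genes' log2 differences from Control stood at -0.34 in MMS D3, then at -0.65 in MMS D7 and at -1.08 in MMS D14, and both R1 and R2 had -0.38. Relative to that shift the Sfrp5 difference was 0.17 in MMS D7, -0.08 in MMS D14 and -0.39 in R2, so in MMS D7 its direction turned.

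Dkk3 had FPKM values of 8.45, 6.82 and 7.64 in Control synovium, 13.86, 19.94 and 15.17 in MMS D3, 42.37, 28.87 and 56.37 in MMS D7, and 80.94, 101.34 and 110.68 in MMS D14. The 4 groups did not overlap, and they stood in the order of their D number. The MMS D14 mean of 97.7 ± 15.2 FPKM was 12.8 times the Control mean of 7.64 ± 0.815 FPKM (SD, n = 3 each). The log2 difference from Control was 0.99 ± 0.22 in MMS D3 (adjusted p = 0.00173), 2.29 in MMS D7 (5.96e-07) and 3.51 in MMS D14 (2.58e-09). Each step passed as well: MMS D7 against MMS D3 by 1.29 (adjusted p = 0.00101) and MMS D14 against MMS D7 by 1.22 (0.00117). Dkk3 was 40.48, 24.37 and 31.46 FPKM in R1 and 32.97, 31.03 and 32.44 FPKM in R2, above every Control sample and below every MMS D14 sample. Against Control it was higher by 1.91 in R1 (1.65e-05) and 1.94 in R2 (1.68e-05), and it differed from MMS D14 by -1.59 in R1 (1.95e-05) and by -1.56 in R2 (1.96e-05). None of the alternatives run, those without the 5 libraries that stand apart included, changed a Dkk3 call. Of 9 sublining fibroblast markers 2 were listed, Lum and Col3a1, neither at 0, and their sum was 1087 to 1211 FPKM in Control, 1552 to 2140 in MMS D3, 3748 to 4570 in MMS D7 and 5901 to 6161 in MMS D14. That sum was 2245 to 2759 FPKM in R1 and 2432 to 3018 FPKM in R2. Dkk3 was 1.37 to 1.80% of it in MMS D14, 0.999 to 1.47% in R1 and 1.08 to 1.33% in R2, against 0.614 to 0.703% in Control. Of 6 tendon and ligament cell markers 4 were listed, Scx, Tnmd, Fmod and Thbs4. Their sum was 35.7 to 46.4 FPKM in Control, 681 to 929 in MMS D14, 99.1 to 249 in R1 and 131 to 156 in R2. All 4 were called higher in MMS D14, where 27.7% of all genes were. The part of both marker lists was not tested.

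Sfrp4, a Frizzled-related protein of connective tissue and bone, was the most abundant of the 3 in Control synovium on the per-length FPKM scale, at 71.85, 68.95 and 47.71. It was 21, 53.18 and 23.66 FPKM in MMS D3, 61.5, 58.88 and 46.51 in MMS D7, and 47.08, 55.93 and 54.74 in MMS D14. Replicate 2 of MMS D3 lay within the Control range, while the other 2 were below every other sample. Sfrp4 fell by 1.03 ± 0.27 in MMS D3 (adjusted p = 0.00465), with means of 32.6 ± 17.9 FPKM in MMS D3 and 62.8 ± 13.2 FPKM in Control. Its differences in MMS D7 (-0.16, 0.578, 95% interval -0.73 to 0.41) and MMS D14 (-0.23, 0.4, interval -0.80 to 0.33) did not pass, and with samples centred on their medians they were 0.12 and 0.29. In R1 Sfrp4 was 141.1, 140.77 and 112.19 FPKM, and in R2 it was 173.82, 120.2 and 161.68 FPKM. All 6 samples lay above every Control and every MMS sample. Sfrp4 rose by 1.07 in R1 (0.00319) and 1.27 in R2 (0.0011) against Control, with means 2.09 and 2.42 times the Control mean. Against MMS D14 it was higher by 1.30 in R1 (0.000392) and 1.5 in R2 (0.000127). The rise in MMS D7 against MMS D3 (0.87, 0.0254) was lost without the 5 libraries that stand apart (0.11), without MMS D3 replicate 1 (0.0696) or 3 (0.111), without MMS D7 replicate 1 (0.0728) or 2 (0.0577), and with only the 2 groups in the fit (0.0964). The summed level of the 4 of 6 lining fibroblast markers listed (Clic5, Hbegf, Tspan15 and Htra4, none at 0) moved with it in MMS D3, R1 and R2. In MMS D3 these markers summed to 368 to 564 FPKM, against 600 to 769 FPKM in Control, and Sfrp4 was 4.19 to 12.6% of the sum. There 3 of 4 were called lower, beside 39.6% of all genes. The markers summed to 461 to 576 FPKM in MMS D7 and 327 to 419 FPKM in MMS D14. In each, 3 of 4 were called lower, beside 61.6% of all genes in MMS D7 and 69.3% in MMS D14. Sfrp4 was 10.1 to 10.7% of the sum in MMS D7 and 13.1 to 14.4% in MMS D14. Against Control the same markers had a median log2 change of 0.45 in R1 and 0.34 in R2, beside 1.07 and 1.27 for Sfrp4. In each, 2 of 4 were called higher, beside 15.9% of all genes in R1 and 15.7% in R2. They summed to 1097 to 1391 FPKM in R1 and 909 to 1870 FPKM in R2, against 600 to 769 FPKM in Control. Sfrp4 was 8.45 to 12.9% of that sum in R1 and 8.65 to 18.4% in R2, against 6.21 to 12.0% in Control, and the part of these markers was not tested.

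Sfrp5 was scarce in synovium, at 4.33, 6.81 and 3.13 FPKM in Control, 4.48, 3.72 and 4.3 in MMS D3, 3.58, 3.64 and 2.04 in MMS D7, and 1.74, 1.51 and 1.24 in MMS D14. The MMS D14 samples lay below all others, and the MMS D3 and MMS D7 samples overlapped Control. Sfrp5 fell by 1.16 ± 0.21 in MMS D14 (adjusted p = 4.54e-05) and by 0.47 in MMS D7 (0.0419), and differed by -0.11 in MMS D3 (0.666, 95% interval -0.54 to 0.33). The MMS D14 fall was close to the median of all genes in that group. With samples centred it was -0.64 (0.0098), again close to the median of all genes, which was still -0.56 after centring. The MMS D7 call was lost with centring (-0.19, adjusted p = 0.415), with only the 2 groups in the fit (0.114), and without Control replicate 1 (0.0605), Control replicate 2 (0.286) or MMS D7 replicate 3 (0.238). Sfrp5 was 3.1, 4.4 and 3.75 FPKM in R1, overlapping Control, and 2.08, 2.6 and 2.14 FPKM in R2, below every Control sample. It differed from Control by -0.77 in R2 (0.00483), and its R1 difference of -0.24 did not pass (0.33, interval -0.67 to 0.20). In MMS D14 against MMS D7 it fell by 0.69 (0.0126), a call lost with centring (0.102) and without MMS D7 replicate 1 (0.0564) or replicate 2 (0.0608). The adipocyte sum over 13 of 13 markers, none at 0, was 4741 to 7701 FPKM in MMS D14, 14042 to 15821 in R1 and 13707 to 15716 in R2, against 27755 to 33823 in Control. Sfrp5 was 0.0161 to 0.0367% of that sum in MMS D14, 0.0221 to 0.0300% in R1 and 0.0138 to 0.0165% in R2. In Control it was 0.0113 to 0.0224%, and the part of these markers was not tested.

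**Figure D3:**
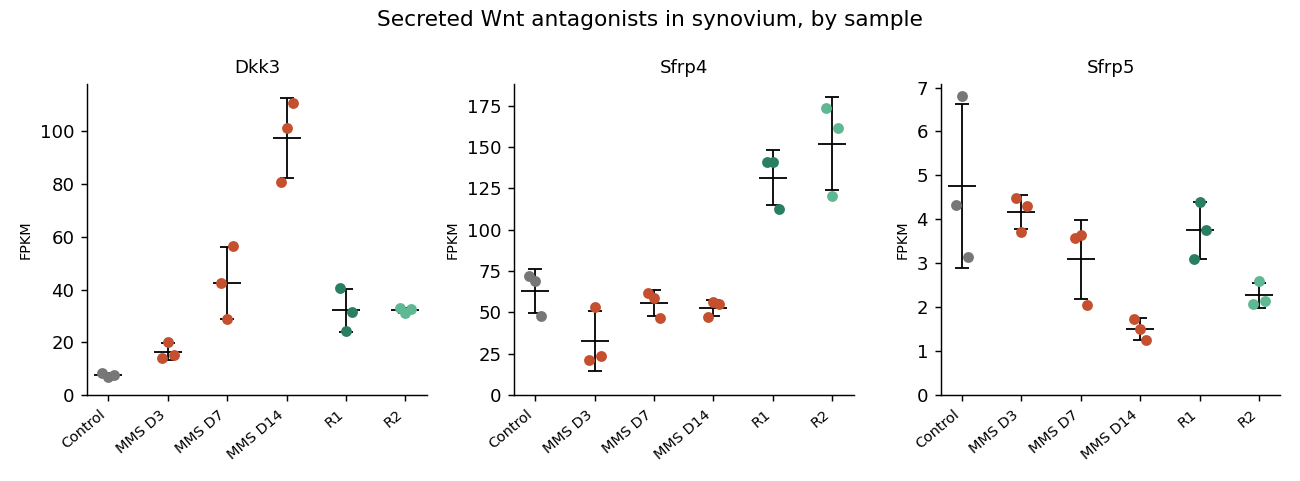
FPKM (vertical axis, starting at 0) of Dkk3, Sfrp4 and Sfrp5 in each synovium sample by group; points are samples (grey Control, red MMS, green R1 and R2), horizontal bars the mean of 3 and whiskers 1 SD. Dkk3 is highest in MMS D14 at 80.94 to 110.68 FPKM, and all R1 and R2 points of Sfrp4 lie above its Control points.

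The comparisons with MMS D14 in synovium passed for 3 of 3 in R1, against 89.0% of all genes, and for 2 of 3 in R2, against 88.5%. Sfrp5 was higher by 0.92 in R1 (adjusted p = 0.000701), and its R2 difference of 0.39 did not pass (0.0808, 95% interval -0.04 to 0.83), although it was called with a pseudocount of 0.1 (0.0474) and with only the 2 groups in the fit (0.0255; range over the alternatives 0.0255 to 0.711). Successive MMS groups gave 2 of 3 calls in MMS D7 against MMS D3 (30.4% of all genes) and 2 of 3 in MMS D14 against MMS D7 (55.9%). Between R2 and R1, limma called 0 of 3 and 0% of all synovium genes. At an unadjusted p under 0.05 in limma, 52 of 1178 genes passed between R2 and R1, no more than would pass if no gene differed. Sfrp5 was 1 of them (-0.53, unadjusted p = 0.0196, adjusted p = 0.961). Dkk3 differed by 0.03 (95% interval -0.44 to 0.50) and Sfrp4 by 0.20 (interval -0.37 to 0.77).

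Sfrp5 is the only one of the 6 that both tables held. Its log2 differences from Control in MMS D14 were -2.82 in cartilage and -1.16 in synovium, and in R2 they were -0.05 in cartilage and -0.77 in synovium. In both tissues MMS D14 was its lowest group. In R2 Sfrp5 overlapped Control in cartilage and lay below it in synovium. The difference between tissues was not tested, since the tables were normalised separately.

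**Figure D4:**
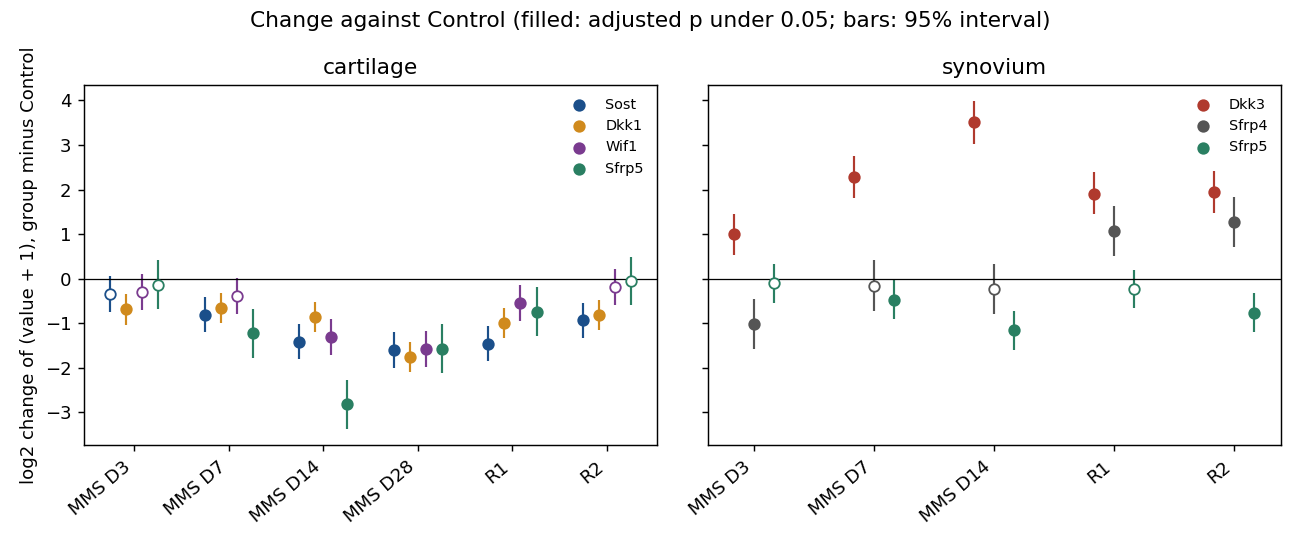
Log2 change of (value + 1) of each antagonist against Control by group, in cartilage (left) and synovium (right); filled points have an adjusted p under 0.05 and bars are 95% intervals of limma. In cartilage each filled point is below 0, and in synovium Dkk3 reaches 3.51 in MMS D14.

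The tables also held other genes of the Wnt pathway, of 93 listed gene symbols 15 in cartilage and 9 in synovium. In cartilage the calls against Control were 0 higher and 3 lower in MMS D3, 1 higher and 1 lower in MMS D7, 1 higher and 8 lower in MMS D14, and 0 higher and 14 lower in MMS D28. In R1 they were 0 higher and 10 lower, and in R2 none of the 15 passed. In either direction, MMS D3 had 23.8% of all cartilage genes called, MMS D7 had 22.4% and MMS D14 had 53.5%. MMS D28 had 97.3%, R1 had 69.2% and R2 had 0.747%. With direction set aside, the MMS D28 count of 14 of 15 stands near that of the whole table. By direction it does not, since all 14 were lower and 54.6% of all genes were called lower there. In R1 33.3% of all genes were called lower. The median log2 change of the 15 was -0.47 in MMS D14 and -0.65 in MMS D28, beside 0.03 and -0.49 for all genes. Among ligands, Wnt11 averaged 1.28 ± 0.226 in MMS D14, against 4.25 ± 0.368 in Control (log2 change -1.21, adjusted p = 0.000286), and Wnt16 1.65 ± 0.0919 against 3.85 ± 0.339 (-0.87, 0.00203). Among receptors, Fzd8 fell by 0.81 in MMS D14 (0.00158) and the R-spondin receptor gene Lgr6 fell by 1.56 (0.000103), whereas Fzd1 rose by 0.91 (0.00419). Tnfrsf11b, which encodes osteoprotegerin, a decoy receptor for RANKL and a known Wnt target in bone, fell by 1.02 in MMS D14 (0.000807). It was 1 of 2 Wnt feedback and target genes listed in cartilage. The other, Wisp1, was not called there and its fitted change was upward, so that the median of the 2 was -0.31. In R2, where Sost and Dkk1 were called lower, Tnfrsf11b differed by -0.57 (0.157) and Lef1, a transcription factor of the pathway, by 0.38 (0.305).

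In synovium the calls of the 9 genes against Control were 4 higher and 0 lower in MMS D3, 7 higher and 1 lower in MMS D7, 7 higher and 2 lower in MMS D14, 4 higher and 2 lower in R1, and 4 higher and 1 lower in R2. Of all synovium genes, MMS D3 had 55.9% called and 16.3% called higher, MMS D7 had 85.7% called and 24.1% higher, and MMS D14 had 96.9% called and 27.7% higher. R1 had 61.1% called and 15.9% higher, and R2 had 60.8% called and 15.7% higher. The median of the 9 was 1.43 in MMS D14, beside -1.08 for all genes. A pair of further secreted antagonists, the Frizzled-related genes Sfrp1 and Sfrp2, was listed. Sfrp2 averaged 96.3 ± 27.8 FPKM in MMS D14, against 17.8 ± 5.81 FPKM in Control (log2 change 2.38, adjusted p = 8.28e-05), and Sfrp1 23.6 ± 5.66 FPKM against 7.13 ± 1.04 FPKM (1.58, 3.55e-05). In R1 Sfrp1 was 7.29 ± 0.629 FPKM and its difference from Control was 0.03 (0.921), whereas Dkk3 and Sfrp4 were called higher there. The receptor genes Ror2 (1.54, 7.62e-07), Fzd2 (1.43, 5.33e-05), Fzd1 (1.24, 1.31e-06) and Fzd8 (1.18, 9.27e-07) rose in MMS D14, and Fzd4 fell by 1.22 (4.84e-05). Of the feedback inhibitors, Nkd2 rose by 1.90 (5.54e-08) and Apcdd1 fell by 1.67 (3.81e-08) in MMS D14.

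**Figure D5:**
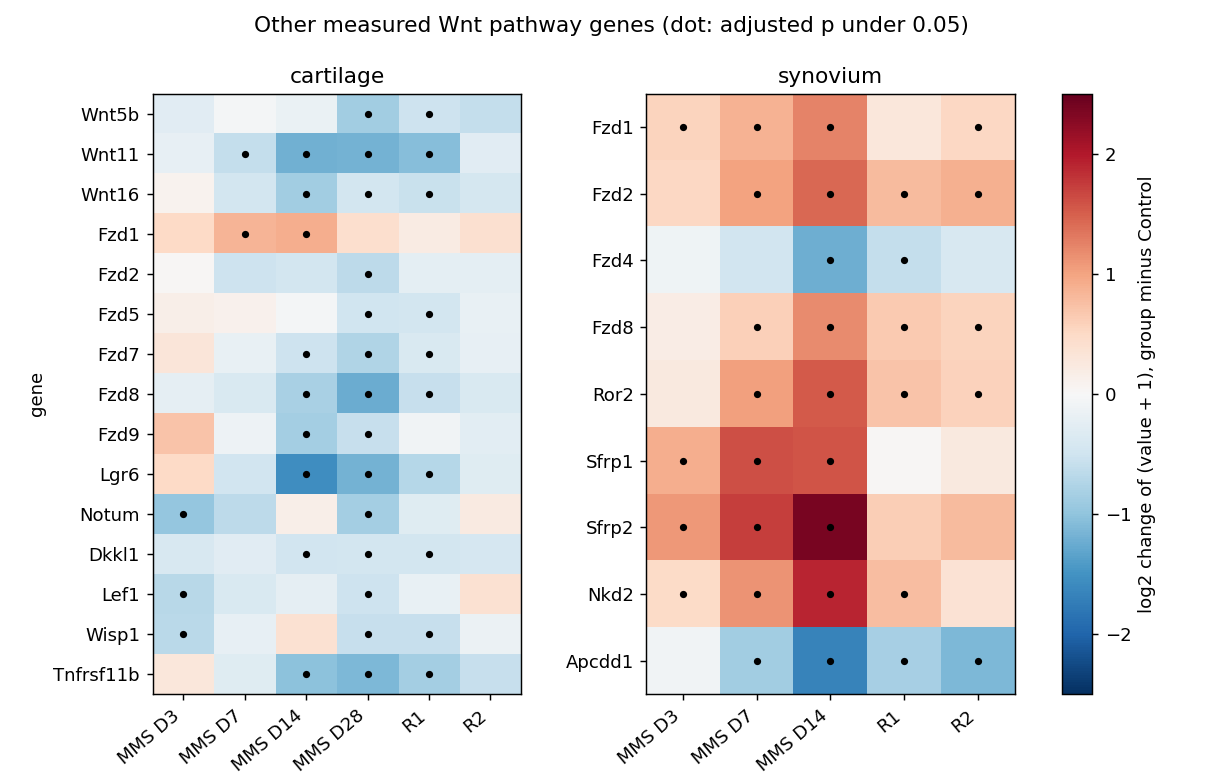
Log2 change of (value + 1) against Control (colour, red higher and blue lower) of the other listed Wnt pathway genes by group, 15 in cartilage (left) and 9 in synovium (right); a dot marks an adjusted p under 0.05. In cartilage 14 of 15 are lower with a dot in MMS D28, and in synovium 7 of 9 are higher with a dot in MMS D14.

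Across all 14 cartilage samples, Pearson's r of log2(value + 1) was highest between Sfrp5 and Wif1 (0.83), Sost and Dkk1 (0.82) and Sost and Wif1 (0.81), and lowest between Dkk1 and Sfrp5 (0.43). Across all 18 synovium samples it was -0.83 for Dkk3 and Sfrp5, 0.14 for Dkk3 and Sfrp4 and -0.14 for Sfrp4 and Sfrp5. These r values describe samples that share groups and libraries. Among all other genes of the cartilage table, Sost was most like Fgf1 (0.972), Gaa (0.961), Lamc3 (0.960), Pcolce2 (0.955) and Boc (0.937), and most opposite Ckap4 (-0.950) and Cd44 (-0.941). Dkk1 was most like Dlx5 (0.924), a homeobox gene of the osteoblast lineage, Enc1 (0.916), Traf3ip2 (0.913), Cd99l2 (0.907) and Nab2 (0.897), and most opposite Etv6 (-0.922) and B4galnt1 (-0.919). Wif1 was most like Vit (0.974), Foxd1 (0.955), Itih5l-ps (0.951), the matrix proteoglycan gene Prelp (0.948) and Tnxb (0.945), and most opposite Ifngr1 (-0.963) and Flna (-0.927). Sfrp5 in cartilage was most like Cilp2 (0.960), Ucma (0.955), Gpld1 (0.950), Hs3st3a1 (0.948) and Snorc (0.940), of which Cilp2, Ucma and Snorc encode cartilage matrix or membrane proteins, and most opposite Mmp19 (-0.965) and Fabp5 (-0.919).

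In synovium Dkk3 was most like Pdgfrl (0.985), Ppic (0.980), the matrix proteoglycan gene Lum (0.980), Grb10 (0.967) and the membrane metalloproteinase gene Mmp14 (0.963), and most opposite the lipid droplet gene Cidec (-0.956) and Tmem134 (-0.955). Sfrp4 was most like Olfml2a (0.904), Pkp1 (0.900), Ypel4 (0.897), the lining marker Hbegf (0.872) and Nat8f3 (0.854), and most opposite the chemokine gene Cxcl13 (-0.837) and Fen1 (-0.764). Sfrp5 in synovium was most like Slc25a22 (0.925), Psmb10 (0.920), Eif4ebp1 (0.901), Cox8a (0.894) and Alad (0.888), and most opposite Slc40a1 (-0.905) and Tnmd (-0.879). By rank of mean level, Dkk3 went Control, MMS D3, R2, R1, MMS D7 and MMS D14 from lowest to highest, with R2, R1 and MMS D7 overlapping, and Sfrp4 placed MMS D3, MMS D14, MMS D7 and Control below R1 and R2 with a gap between Control and R1. Sost went MMS D28, R1, MMS D14, R2, MMS D7, MMS D3 and Control, with the first 3 overlapping and R2 overlapping MMS D7.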

How the data were processed

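Synovium and cartilage RNA was extracted with Trizol and sequenced by BGI protocols, per the labels' protocols; the tool HISAT2 and the build mm10 are named in the submitters' processing notes. The synovium table holds FPKM, per the file headers, and the cartilage table holds a normalised signal that the authors deposited without a stated unit. The depth of each sample is unknown, since neither table gives counts, and no interval for counting error is given; listed values start at 0.55 in synovium and 0.5 in cartilage. Each table lists selected genes, which limits the variance model and centring. Sums of listed values per sample were 70104.5 to 132996 in synovium and 108504 to 149830 in cartilage.

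Values were tested as log2(value + 1) with limma 3.58.1 (R 4.3.3), with a variance trend, all groups of a tissue in 1 fit and Benjamini-Hochberg adjustment over the whole table. Fold changes on this scale understate changes of low genes. Requiring a value of 1 or more in a number of samples equal to the smallest group's size removed 0 genes. The fit was tested on simulated data. Replicate numbers were not taken to pair samples, and the labels give no batch. Alternatives were centring, a pseudocount of 0.1, no filter, no trend, a replicate block, only the 2 groups compared, and each replicate left out; leaving out 5 synovium libraries was added after the data were seen. The 6 genes and all gene lists were chosen with earlier results of these data known. All 6 genes are named, any listed Wnt gene may be named, and for each of the 6 the 5 genes with the highest and the 2 with the lowest Pearson correlation are named. Sequences were read from RefSeq tables and positions from GENCODE vM21. Tables and figures used Python 3.11.15, pandas 2.3.3, numpy 2.4.6 and matplotlib 3.10.9.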

Additional observations from a re-analysis of the deposited data

How the results depend on the processing

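Of 78 differences of the antagonists, 49 were called. Over the alternatives, called differences stayed called in 490 values and lost the call in 60; uncalled ones gained it in 6 and changed sign in 20. With 2 or 3 samples a group, most lost calls came from leaving 1 sample out. The cause was not tested.

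Numbers of antagonists called moved as follows. In synovium, MMS D7 against Control gave 1 with centring or only the 2 groups, against 2; MMS D7 against MMS D3 gave 1 with only the 2 groups or without the 5 libraries, against 2; MMS D14 against MMS D7 gave 1 with centring, against 2. In cartilage, R2 against Control gave 1 with a pseudocount of 0.1 and 0 with only the 2 groups, against 2, and R2 against R1 gave 0 with centring and 2 with only the 2 groups, against 1. Leaving out a replicate gave 1 to 2 for those 3 synovium comparisons. In cartilage it gave 0 to 1 for MMS D3, 2 to 4 for R1 and 0 to 1 for R2 against Control, 1 to 2 for R1 against MMS D14, 0 to 0 for R2 against R1, 0 to 2 for MMS D7 against MMS D3, 0 to 3 for MMS D14 against MMS D7 and 0 to 2 for MMS D28 against MMS D14.

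With the replicate number as a block, 0 antagonists were called in cartilage R2 against Control (Sost adjusted p = 0.0601, Dkk1 0.0615) and 0 in R2 against R1 (Sost 0.0565), and Sost in MMS D14 against MMS D7 had 0.0582; no other antagonist call changed. Numbers of all genes called under the block were 1 against 12 in cartilage R2 against Control and 177 against 272 in MMS D14 against MMS D7. Residuals of same-numbered samples had r over 0.1 in 26 of 45 pairs in synovium (lowest -0.16, 11 samples correlating best with their own number) and 12 of 42 in cartilage (lowest -0.51, 0 samples). Neither tissue had r over 0.1 in every pair and the labels name no shared animal, litter or day, so the numbers were not taken to pair the samples; that 11 of 18 synovium samples correlate best with their own number is a hint from the data, not the design.

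Signs that turned were those of uncalled differences. With centring, Sfrp5 was 0.02 in synovium MMS D3 and Sfrp4 0.12 in MMS D7 and 0.29 in MMS D14 against Control, Sfrp4 0.17 in MMS D14 against MMS D7, and Wif1 0.06 in cartilage MMS D7 against MMS D3. With a replicate left out, differences in synovium ran from -0.32 to 0.14 (Sfrp5 in MMS D3) and from -0.45 to 0.01 (Sfrp5 in R1) against Control, -0.15 to 0.21 (Dkk3, R2 against R1) and -0.20 to 0.00 (Sfrp4, MMS D14 against MMS D7). In cartilage they ran from -0.34 to 0.07 (Sfrp5 in MMS D3) and -0.26 to 0.15 (Sfrp5 in R2) against Control, -0.13 to 0.03 (Sost in R1), -0.11 to 0.23 (Dkk1 in R2) and -0.40 to 0.01 (Sost in MMS D28) against MMS D14, and -0.05 to 0.11 (Dkk1) and -0.37 to 0.18 (Wif1) in MMS D7 against MMS D3.

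All genes called numbered 116 with only the 2 groups against 358 in synovium MMS D7 against MMS D3, 407 with centring against 659 in MMS D14 against MMS D7, and in cartilage 0 with only the 2 groups against 12 in R2 against Control and 467 against 290 in R1 against MMS D14. Centring moved the percentage of calls that were higher by over 10 points in synovium R1 (36.9 against 26.0) and R2 (40.8 against 25.8) against Control, R1 against MMS D14 (58.9 against 71.0), MMS D7 against MMS D3 (62.9 against 39.7) and MMS D14 against MMS D7 (49.9 against 22.5). In cartilage it did so in MMS D7 (44.6 against 30.4) and R1 (67.0 against 52.0) against Control, MMS D7 against MMS D3 (44.2 against 16.6), MMS D14 against MMS D7 (36.6 against 54.8) and MMS D28 against MMS D14 (41.6 against 26.5).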
